A study of Mus musculus with 24 samples.

Results

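Transcript half-lives were measured in control preleukemic cells, for every gene whose 3′ untranslated region (3′UTR) was covered deeply enough in all 12 control libraries. The cells came from c-Kit+ fetal liver of E14.5 C57BL/6 mice and were transduced with retroviral Meis1 and Hoxa9, a pair of genes that keeps myeloid progenitors growing in culture. They had the genotype labelled control, which the study's methods give as Tut4 fl/fl; Tut7 fl/fl without Vav-iCre, a Cre driven in blood cells. The controls therefore carried both floxed genes intact, and the double conditional knockout was not analysed here. All 12 libraries carried the Hoxa9/Meis1 transduction and came from cells grown in IL-3, IL-6 and Stem Cell Factor. RNA was labelled for 12 h with 2.9 µM 4-thiouridine (4SU), a uridine analogue taken up into new transcripts. The label was then washed out and cells were collected at once or after 60, 180 or 540 min of chase, with 3 libraries at each time. In the labels the batch is the chase time, so the effects of time and batch cannot be told apart. The study's methods describe the replicates as biological. As the line was made by transduction in culture, these cells are a model of a preleukemic state and not tissue from a diseased animal.

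Alkylated 4SU is sequenced as C, and the conversion rate, T-to-C conversions over covered T positions, falls as labelled transcripts are lost and replaced. A gene was kept when at least 100 covered T positions were counted in each library and the SD of its 0 min rates, divided by their mean, was below 0.3. The rates of the 12 libraries, divided by the mean 0 min rate, were fitted with a single exponential that gives the half-life. Of 20868 genes, 7168 had no read in the 12 libraries, 4087 had reads but too little coverage, and 1857 were left out on the spread at 0 min. The remaining 7756 genes had a half-life, of which 6864 had at least 1000 covered T positions in each library. The genes left out on the spread were less abundant, with a median of 9.66 CPM (read count scaled to the 3′UTR reads of the library) at 0 min against 54.0 CPM in the fitted genes. At the limit, Dtwd1 lay just inside with an SD of 0.2999 and Aamdc just outside at 0.3.

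The steady level of an mRNA is set by how fast it is made and how fast it is destroyed. In most mammalian transcripts decay starts with shortening of the poly(A) tail by the CCR4-NOT and PAN2-PAN3 complexes and goes on by decapping and digestion from either end. Some proteins that bind AU-rich or Pumilio elements in the 3′UTR speed up the first step. TUT4 and TUT7, the terminal uridylyltransferases deleted in the other arm of the study, add uridines to short tails. Messages of regulators that act in bursts are known as short-lived and messages of structural and metabolic proteins as long-lived.

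Reads in 3′UTRs ranged from 4875817 to 7041311 per library, with 100656225 to 144862119 covered T positions. The library-wide conversion rate was 1.64% ± 0.0261 (SD, n = 3) at 0 min, 1.49% ± 0.0332 at 60 min, 1.08% ± 0.0358 at 180 min and 0.314% ± 0.0133 at 540 min. The progenitor markers had a summed level of 7692 to 8840 CPM per library, and 10 of the 11 had reads. The exception was Meis1, whose deposited 3′UTR interval held no read in any library. Marker sums of B cells reached at most 0.387 CPM, of T cells 18 CPM, of erythroid cells 3.07 CPM, of mast cells and basophils 18.8 CPM, of megakaryocytes 6.19 CPM and of stroma and liver 3.94 CPM. In these bulk libraries fewer cells of a type and less RNA per cell cannot be told apart.

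The median half-life was 204 min, with 201, 213 and 195 min in replicates 1 to 3 (SD 9.38, n = 3). The middle 50% of genes lay between 130 and 291 min, and the 5th and 95th percentiles were 76.8 and 649 min, a range of 8.45-fold. Transcripts with a half-life under 60 min numbered 127 (1.64%), and 521 (6.72%) exceeded the chase of 540 min, so that the order among the latter was poorly resolved. For 17 genes the fit ran to the upper bound of 10000 min. Between replicates the half-life of a gene had a median coefficient of variation of 18.2%, and the ranks of the genes correlated with a Spearman coefficient of 0.80 to 0.82 between pairs of replicates. Neighbours in the order of single genes therefore mostly did not differ beyond their spread. All replicates were divided by the same mean rate at the start of the chase, so their half-lives are not independent. Error in that mean is missing from the spread and shared in the rank correlations, and its size was not tested.

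Class medians did not follow a single exponential. Genes were split by half-life into 5 equal classes. In the slowest class, a median of 99.6% of the 0 min rate was left at 60 min, 89.5% at 180 min and 31.2% at 540 min, whereas a single exponential with the half-life of these genes gives 90.8%, 75% and 42.1%. The middle class held 90.5%, 56.7% and 6.59%, against 81.6%, 54.3% and 16.0%. Both classes thus lost less label than the curve gives in the first hour and more in the last 6 h. At the other end, the shortest class kept 3.87% at 540 min against 1.80% on the curve, and 473 genes of fast decay had a mean residual rate of 0.0869% ± 0.00281 (SD, n = 3) at that time after 2.08% at 0 min. Half-lives are used below to rank genes on one scale, and the values at each time are given where they differ from the curve.

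The half-life of a gene depended on the curve. With a line fitted to log rates, its intercept left free, the median of all genes was 146 min, and 31 of the 86 named genes shorter than the median by the single exponential were longer than the median by this fit. Of the genes described below these were Klf10, Ddit4, Zfp87, Hic2, Snx24, Ddx28, Ier2, Junb, Gadd45a, Socs2, Id1, Id2, Polk, Cxcr4, Ago3, Zc3h12a, Clk1 and Ndufs3. The opposite was found in 11 of 91, among them Kit, Srf, Bak1 and Sdhd.

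**Figure D1:**
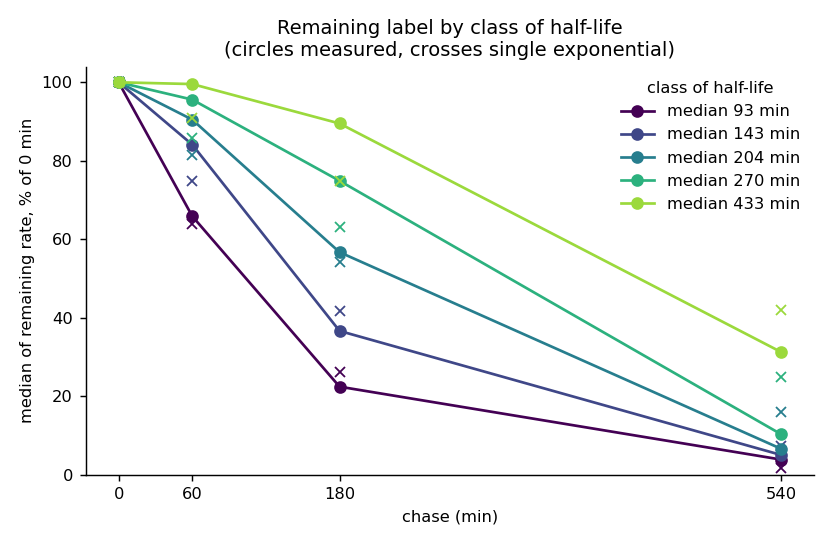
Median conversion rate left, in percent of the mean 0 min rate, against chase time in minutes for 5 equal classes of genes ordered by half-life; circles and lines are measured medians over genes and crosses are the values of a single exponential with the median half-life of the class. At 60 min the circles of the longer-lived classes lie above their crosses, and at 540 min they lie below them.

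Loss of conversions was also tested against the typical gene with edgeR's quasi-likelihood test, as a slope over chase hours on the conversion counts, relative to the library's median rate. Of 9302 genes tested, 1786 (19.2%) lost conversions faster and 2417 (26%) slower at an adjusted p below 0.05. With the pooled rate of the library as the reference in place of the median, 5260 (56.5%) were faster and 971 (10.4%) slower, so that 84.4% of calls were faster against 42.5% here, and the median slope of all genes moved from -0.01 to -0.15 log2 per hour. Faster and slower therefore hold relative to the median gene. Of 78 named genes called slower, 55 were also slower than the pooled rate and 23, with Hoxa9, Junb and Id1 among them, were not called. All 34 named genes called faster were faster on both references. As the pooled reference lowered the slopes, this follows from the shift and is no support for those calls. The slope over the whole chase was of little use for the shortest-lived genes, whose rate at 540 min was near the residual level given above. Among the 1529 tested genes of the shortest class, 671 were called faster and 22 slower. Without the 540 min libraries, where 23.8% of 9263 genes were faster and 23.9% slower, 1255 of 1526 were called faster and 0 slower. In the longest class, 1328 of 1548 genes were called slower with all times and 1240 of 1545 without 540 min, and 0 were called faster in either. As both the half-life and the slope are taken from the same rates, this is a comparison of 2 measures and no independent support. Counts called in the lists below are to be read beside the shares of all genes given here.

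Read levels moved in fewer genes than the rates did. Of 10226 genes, 836 (8.18%) had lower and 824 (8.06%) higher read counts at 540 min than at 0 min by edgeR. They were 453 and 557 without replicate 1, 603 and 595 without replicate 2 and 274 and 306 without replicate 3, with fewer libraries in each test. At 540 min, chi-square per degree of freedom between read counts was 6.465 and 7.141 with replicate 2, against 4.035 for replicates 1 and 3. The part of this spread in the counts called was not tested. From the shortest- to the longest-lived class, the share of tested genes called lower was 8.25%, 7.03%, 8.45%, 11.3% and 16.1%. The conversion rate is a share of the reads present, so growth of the culture and new synthesis dilute it as well as decay, and these cannot be told apart here.

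The 12 shortest-lived transcripts that passed the rule for naming genes were Nuak2, Klf10, Socs1, Armc5, Ddit4, Zfp87, Cmtr2, Cd69, Hic2, Ier3, Snx24 and Ddx28, with half-lives from 34.8 to 44.9 min. Nuak2 encodes a stress-responsive AMPK-related kinase. Its rates were 1.78%, 1.86% and 1.63% at 0 min, 0.486%, 0.288% and 0.602% at 60 min, 0.457%, 0.343% and 0.145% at 180 min and 0%, 0.145% and 0.0208% at 540 min. Every 60 min library lay below every 0 min library by more than 2-fold, and the half-life was 34.8 ± 9.29 min (SD, n = 3). Ddit4, an inhibitor of mTORC1 signalling induced by stress, had rates of 1.51%, 1.8% and 1.99% at 0 min and 0.434%, 0.691% and 0.579% at 60 min. Its half-life was 40.0 ± 6.61 min, and its level of 71.4 CPM did not pass the test for a change over the chase (edgeR adjusted p = 0.78). Klf10, a transcriptional repressor of the TGFβ early response, had 3.09%, 2.14% and 2.08% at 0 min, 0.989%, 0.432% and 0.832% at 60 min and still 0.226%, 0.416% and 0.232% at 540 min, with a half-life of 38.7 ± 12.8 min. By the log-linear fit the 12 genes had 95.7 min (Cmtr2) to 222 min (Klf10), and 6 of them lay above the median of all genes. The order within these 12 was not resolved, since the SD of a single half-life was 6.61 to 33.7 min. With all times, Armc5 and Cmtr2 alone were called faster, whereas all 12 were called faster without the 540 min libraries (edgeR adjusted p = 2.7e-08 for Ddit4 and 0.00023 for Klf10). The 12 were picked by half-lives fitted to these same rates. Their calls and their fall at 60 min are therefore no independent support.

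**Figure D2:**
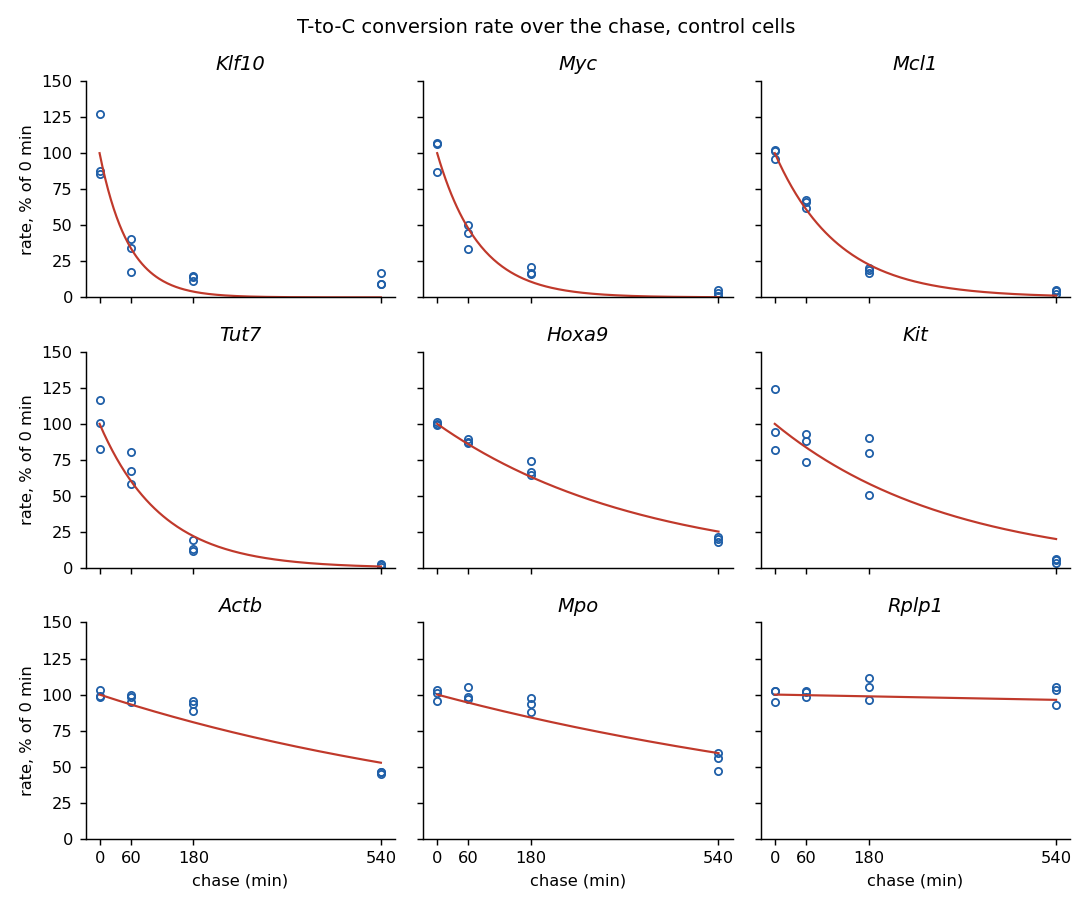
Conversion rate in percent of the mean 0 min rate against chase time in minutes for 9 named genes; each circle is 1 of the 12 control libraries and the line is the fitted single exponential. The rate of Klf10 falls most in the first hour and stays above the residual level at 540 min. Mpo and Actb keep most of the label until 180 min, and Rplp1 shows no loss over 540 min.

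Immediate early genes, transcription factors switched on within minutes of growth factor or stress signals, were the list with the lowest median. Of 26 genes, 11 were fitted, with a median of 61.4 min (replicate medians 65.5, 63.9 and 60.2 min), and 9 of the 11 lay in the shortest 25% of all genes. Fos and Jun, the subunits of AP-1, were not fitted: Fos was covered in too few reads and the spread of Jun at 0 min was 0.417. Ier3, an early response regulator of survival, had 44.4 ± 13.4 min and Ier5 55.5 ± 18.6 min. Ier2 had 97.0 ± 14.6 min. The longest-lived were Junb at 121 ± 35.7 min, Jund at 155 ± 36.8 min and Srf, the serum response factor that drives many of the others, at 235 ± 32.6 min. In the slope test 3 of 11 members were faster and 1 slower, and without 540 min 9 of 11 were faster and 0 slower. The slower call was Junb, whose rates of 0.533%, 0.455% and 0.251% at 540 min were above the residual level after 1.03%, 1.18% and 1.16% at 60 min. Without 540 min Junb was called faster (edgeR adjusted p = 0.0082).

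Myc, the growth regulator with a classically unstable message, had a half-life of 56.1 ± 8.84 min. Its rates were 1.78%, 2.18% and 2.16% at 0 min, 1.02%, 0.917% and 0.680% at 60 min, 0.327%, 0.339% and 0.426% at 180 min and 0.0184%, 0.0679% and 0.0995% at 540 min. The groups at successive times did not overlap. Myc was called faster than the typical gene (slope of -0.17 log2 per hour, SE 0.06, edgeR adjusted p = 0.020), and its read level did not pass the test at 540 min (adjusted p = 0.59).

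Feedback inhibitors of signalling, such as the SOCS proteins that shut off cytokine receptors and the DUSP phosphatases that shut off MAP kinases, were all short-lived among the fitted members. Of 31 genes with an interval, 17 were fitted, all 17 in the shortest 25%, with a median of 74.5 min (replicate medians 69.0, 69.9 and 73.0 min) and a range of 24.2 to 110 min. Socs1, which inhibits JAK kinases, had 1.29%, 1.69% and 2.23% at 0 min, 0.451%, 0.688% and 0.401% at 60 min and 0.0193%, 0.0435% and 0.15% at 540 min, with a half-life of 39.1 ± 10.9 min. Socs2 reached 97.6 ± 12.9 min, and the antiproliferative Tob2 had 103 ± 27.0 min. The shortest members by the fit, Gadd45a and Dusp10, were low in abundance at 7.53 and 2.29 CPM, and their SDs of 20.6 and 27.3 min were close to the values themselves. Of 16 members tested, 3 were faster and 3 slower with all times (18.75% each), not above the 19.2% and 26% of all genes. Without 540 min 13 were faster and 0 slower, beside 23.8% and 23.9% of all genes.

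Circadian clock genes, whose products repress their own transcription once a day, had a median of 78.0 min over 11 fitted genes. The replicate medians of 127, 103 and 70.0 min were far apart, and the members were of low abundance with a median of 15.1 CPM. Bhlhe40 was the most precise at 61.2 ± 2.75 min, Per2 had 56.3 ± 12.9 min and Cry1 164 ± 58.4 min. All 11 lay below the median of all genes. Of the 11, 1 was faster with all times and 5 without 540 min.

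By the log-linear fit the medians of these 3 lists were 137 min for immediate early genes, 148 min for feedback inhibitors and 140 min for clock genes, beside 146 min for all genes.

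Zinc-finger genes named Zfp, most of them sequence-specific DNA-binding regulators, were the largest short-lived list. Of 353 with an interval, 150 were fitted, with a median of 101 min (replicate medians 99, 98.2 and 100.1 min), and 103 of the 150 lay in the shortest 25% and 2 in the longest. They were of low abundance, with a median of 20.8 CPM, and had long 3′UTRs, with a median of 1374 bases. The extreme members were uncertain, as Zfp599 at 25.6 ± 34.4 min and Zfp296 at 526 ± 803 min show. Of 147 tested, 42 (28.6%) were faster and 13 (8.84%) slower, and without 540 min 88 of 144 were faster and 3 slower.

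Transcription factors of myeloid and progenitor cells had a median of 108 min (23 fitted of 40, replicate medians 103, 114 and 104.9 min) at a median level of 164 CPM. Id1 and Id2, dominant-negative partners of basic helix-loop-helix factors, had 58.5 ± 11.6 and 62.1 ± 7.02 min, and Zeb2, a repressor needed for myeloid fate, 70.2 ± 7.41 min. Id1 was called slower with all times, with 0.18%, 0.268% and 0.255% left at 540 min, while its rates of 0.632%, 0.836% and 0.727% at 60 min were less than 50% of each of the 0 min rates of 1.83%, 1.94% and 1.76%. At the other end were Spi1, which encodes the myeloid master regulator PU.1, at 239 ± 24.5 min, Hoxa9 at 272 ± 24.5 min and Stat5a, which relays IL-3 signals, at 373 ± 50.6 min. Of 23 members 11 were faster and 4 slower, and without 540 min 20 were faster and 2 slower.

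Hoxa9 was among the most abundant messages at 2615 ± 178 CPM (SD, n = 3). Its rates were 1.80%, 1.84% and 1.81% at 0 min, 1.59%, 1.63% and 1.58% at 60 min, 1.21%, 1.35% and 1.17% at 180 min and 0.331%, 0.388% and 0.361% at 540 min, close to each other within every time. It was called slower than the typical gene (slope of 0.15 log2 per hour, SE 0.01, edgeR adjusted p = 6e-13) but not than the pooled rate (slope of 0.01, SE 0.01, edgeR adjusted p = 0.47), and its reads were lower at 540 min (log2 fold change of -0.35, SE 0.06, edgeR adjusted p = 0.00077). Reads from the retroviral copy and from the gene of the cell cannot be told apart if both carry this 3′UTR, which was not tested. Kit, the Stem Cell Factor receptor, had a half-life of 234 ± 65.2 min. Its rates at 180 min, 0.953%, 1.49% and 1.68%, overlapped those at 0 min, 1.53%, 2.33% and 1.76%, while only 0.104%, 0.0625% and 0.123% were left at 540 min.

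Survival and stress regulators were split. The p53 targets had a median of 110 min (22 fitted of 28, replicate medians 123, 115 and 92.5 min), and 15 of the 22 lay in the shortest 25%. Ccng2, a cyclin that restrains the cell cycle, had 30.3 ± 3.00 min and Polk, a translesion polymerase, 67.4 ± 17.9 min, whereas Bax had 449 ± 291 min and Trp53 itself 344 ± 147 min. Read levels of 12 of the 22 were lower at 540 min and of 0 higher, beside 8.18% of all genes lower. In the Bcl2 family the median was 166 min over 13 genes (replicate medians 174, 177 and 167 min). Its short-lived members were Bbc3 (PUMA) at 74.8 ± 12.8 min, Mcl1 at 84.5 ± 3.35 min and Pmaip1 (NOXA) at 86.7 ± 11.4 min, and its long-lived members the killer proteins Bak1 at 321 ± 55.9 min and Bax. Bcl2 lay between them at 155 ± 30.7 min. Mcl1, the survival factor on which myeloid progenitors depend, was the most precisely measured of these. Its rates of 1.96%, 1.86% and 1.98% at 0 min were followed by 1.27%, 1.2% and 1.31% at 60 min, 0.396%, 0.364% and 0.325% at 180 min and 0.0813%, 0.0920% and 0.0436% at 540 min, with no overlap between times.

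Chemokines, cytokines and their receptors had a median of 137 min (24 fitted of 42), with 12 in the shortest 25% and 3 in the longest. Secreted factors lay at both ends: Csf1 had 52.5 ± 13.2 min and the chemokine Ccl3 64.3 ± 2.74 min, while Ccl9 had 342 ± 12.1 min. Among receptors, Cxcr4, which holds progenitors in the marrow, had 59.6 ± 9.07 min, and Csf1r and Csf2ra had 446 ± 288 and 523 ± 405 min, values too spread to order. Of 24 members 6 were faster and 3 slower, and without 540 min 14 were faster and 3 slower. Ubiquitin ligases and conjugating enzymes had a median of 173 min over 45 genes, with 15 in the shortest 25% and 5 in the longest. Vhl, Mdm2 and Skp2, substrate receptors or ligases for HIF, p53 and p27, were the shortest at 80.6 ± 30.9, 83.1 ± 18 and 90.2 ± 40.5 min, and the conjugating enzyme Ube2a was at 376 ± 76.8 min.

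The mRNA decay machinery had a median of 161 min over 63 fitted genes of 70 (replicate medians 170, 170 and 151 min), of which 20 lay in the shortest 25% and 9 in the longest. Tut4 and Tut7, the uridylyltransferases that the study deletes in its other arm, were both short-lived in these controls. Tut7 had 2.11%, 1.74% and 2.46% at 0 min, 1.41%, 1.22% and 1.70% at 60 min, 0.251%, 0.405% and 0.271% at 180 min and 0.0564%, 0.0131% and 0.0423% at 540 min. Its half-life was 82.8 ± 9.60 min, its loss was faster than typical (slope of -0.32 log2 per hour, SE 0.07, edgeR adjusted p = 0.00049), and its reads were higher at 540 min (log2 fold change of 0.53, SE 0.13, edgeR adjusted p = 0.0072). Tut4 had a half-life of 103 ± 4.11 min and was also faster (slope of -0.15, SE 0.04, edgeR adjusted p = 0.0014), with no call on its level (adjusted p = 0.84). At the long end of the list stood subunits of the LSM ring that binds the 3′ end of deadenylated messages, Lsm4 at 991 ± 568 min, Lsm7 at 573 ± 77.6 min and Lsm5 at 487 ± 53.8 min; 43% and 89% of the reads of Lsm7 and Lsm5 mapped to more than 1 place. Ago3 and Zc3h12a, which encodes the endonuclease Regnase-1, were short by the fit at 37.0 and 54.0 min but with SDs of 36.8 and 82.5 min. Of 63 members 23 (36.5%) were faster and 13 (20.6%) slower.

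Cell cycle genes lay near the middle. Genes of mitosis and G2/M had a median of 189 min (51 fitted of 52, replicate medians 184, 209 and 202 min). Ndc80, a kinetochore component, had 89.4 ± 13.3 min and Anln, which organises the contractile ring, 75.8 ± 22.5 min. Pttg1, the securin, had 367 ± 37.1 min, Cdca3 370 ± 52.9 min and Spc24 332 ± 48.9 min. Of the 51 members 19 were faster and 6 slower, but 16 and 17 without 540 min. Reads of 19 of the 51 were lower at 540 min, beside 8.18% of all genes. DNA replication genes had a median of 236 min over 49, with E2f8 and the licensing factor Cdc6 at 62.8 ± 15.8 and 63.6 ± 9.10 min and the primase subunit Prim2 at 467 ± 90.1 min. Splicing factors had a median of 252 min over 68 (replicate medians 252, 254 and 250 min). The kinases Clk1 and Clk4, which phosphorylate SR proteins, had 85 ± 9.68 and 90.7 ± 25 min, and Snrpd2 and Snrpg of the Sm ring 620 ± 175 and 780 ± 184 min, with 49% and 39% of their reads multimapping. Of 74 histone genes 15 were fitted, with replicate medians of 239, 332 and 246 min. This list cannot be read further. The reads of H2ac23 and H2ac24 were nearly all multimapping, and 10 of 15 members had lower reads at 540 min, beside 8.18% of all genes. Replication-dependent histone messages also mostly lack the poly(A) tail on which the libraries were primed.

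Metabolic lists had medians above that of all genes by the single exponential. Cholesterol synthesis genes had a median of 248 min over 27, but 133 min by the log-linear fit, below the 146 min of all genes, with Hmgcs1, which makes the precursor of mevalonate, at 100.4 ± 7.19 min. Reads of 11 of the 27 members were lower at 540 min, beside 8.18% of all genes. Ebp, a sterol isomerase of the same list, had 559 ± 32.8 min. Polyamine genes had a median of 252 min over 10, where Odc1, the first enzyme, had 329 ± 41.6 min and Oaz1, the antizyme that targets it for degradation, 1180 ± 93.2 min, with 85% and 78% multimapping reads. Glycolysis genes had a median of 303 min over 21. The shortest-lived were Pfkfb4 at 71.4 ± 24.4, the hexokinase Hk2 at 91.4 ± 36.4 and the glucose transporter Slc2a1 at 136 ± 22.7 min, whereas Hk1 and Hk3, other hexokinases named here after their values were seen, had 276 ± 29.4 and 375 ± 68.6 min, and Pkm, the pyruvate kinase, had 864 ± 107 min. tRNA synthetase genes had the narrowest range of the 26 lists as a fold, with all 20 between 220 and 378 min and a median of 275 min.

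Translation factors had a median of 278 min over 61 (26 in the longest 25%), with Eif1a at 111 ± 5.68 min and the elongation factor subunit Eef1b2 at 1307 ± 47.9 min. Chaperones had a median of 310 min over 42 (27 in the longest 25%), but the heat-inducible Dnajb1 had 71.4 ± 13.4 min. Proteasome subunits had a median of 337 min over 42, of which 31 were slower and 0 faster than the typical gene. Genes of the TCA cycle had a median of 352 min over 25, with 17 slower and 1 faster. Mitochondrial ribosomal proteins were lower, with a median of 260 min over 72 (replicate medians 274, 282 and 256 min), 36 slower and 7 faster. Against the pooled rate these counts turned for the mitochondrial ribosomal proteins, with 13 slower and 33 faster, and were 17 and 14 for the proteasome and 8 and 8 for the TCA cycle. They also turned for translation factors, from 31 slower and 8 faster to 13 and 31, and for chaperones, from 20 and 4 to 12 and 21. Lists of other paragraphs turned too, such as splicing factors, from 30 slower and 15 faster to 16 and 42. The medians moved in both directions with the fit. Without the 540 min libraries they were 567 min for translation factors, 723 min for chaperones, 733 min for the proteasome and 647 min for the TCA cycle, beside 236 min for all genes. By the log-linear fit they were 167, 164, 229 and 225 min in the same order, beside 146 min for all genes.

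**Figure D3:**
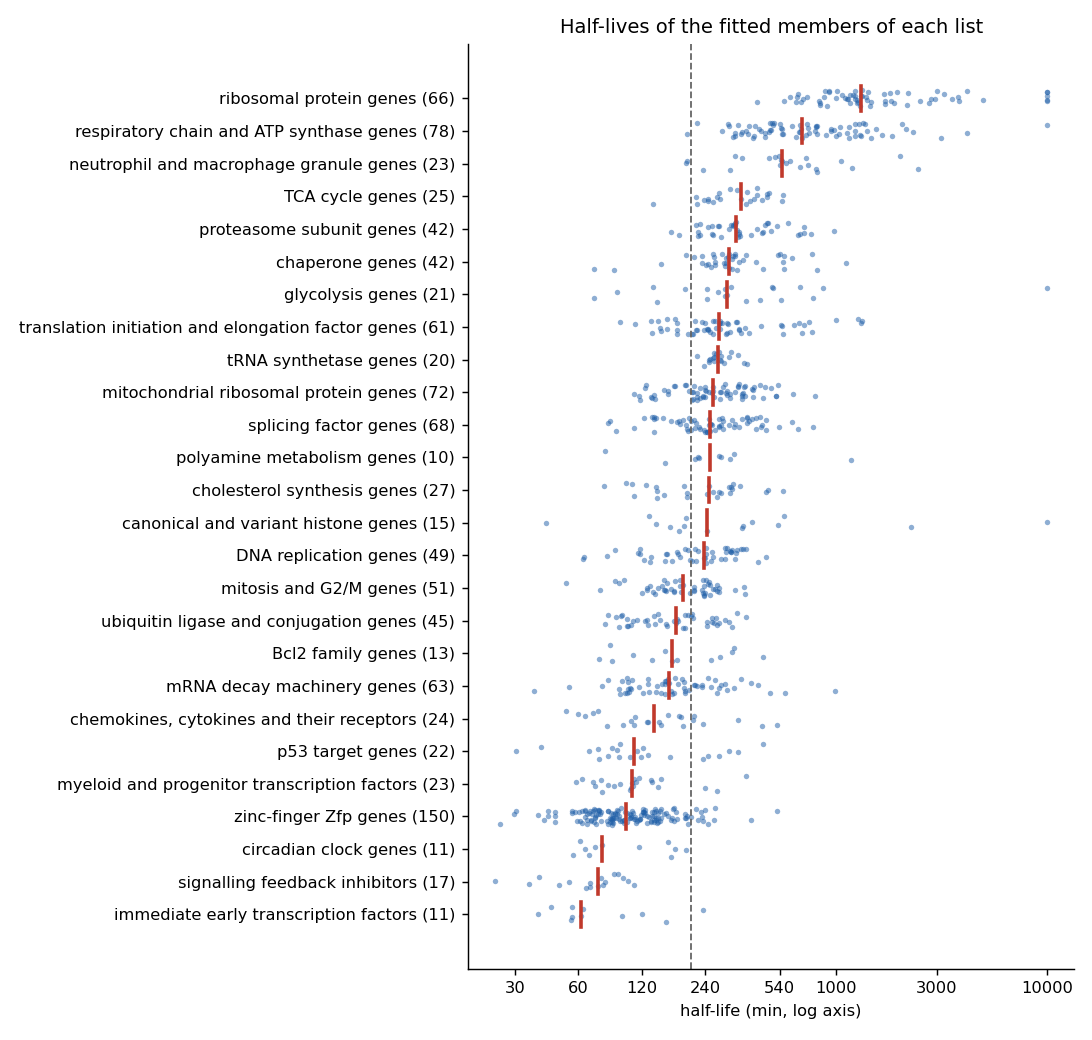
Half-life in minutes on a log axis for each fitted gene (points) of 26 lists, with the number fitted in brackets; red bars are list medians and the dashed line is the median of all 7756 genes, 204 min. Points at 10000 min are at the bound of the fit; early response, feedback, clock and zinc-finger genes lie to the left and ribosomal protein, respiratory chain and granule genes to the right.

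Genes of the granules and surface of neutrophils and macrophages, the mature products of this lineage, were long-lived. Of 38 genes 23 were fitted, with a median of 557 min (replicate medians 574, 714 and 579 min), and 20 of the 23 lay in the longest 25% and 0 in the shortest. Elane, which encodes neutrophil elastase, kept most of its conversion rate throughout. Its rates were 1.81%, 1.85% and 1.91% at 0 min, 1.77%, 1.66% and 1.63% at 60 min, 1.73%, 1.59% and 1.71% at 180 min and 1.58%, 1.67% and 1.5% at 540 min, with a half-life of 2005 ± 401 min at a level of 1487 ± 126 CPM. Mpo, myeloperoxidase, had 1.25%, 1.33% and 1.35% at 0 min and 0.618%, 0.778% and 0.729% at 540 min, with a half-life of 718 ± 159 min, and its reads were higher at 540 min (log2 fold change of 0.38, SE 0.08, edgeR adjusted p = 0.0045). Tyrobp, a signalling adaptor of myeloid receptors, had 2451 ± 717 min, and Cyba of the NADPH oxidase 1196 ± 409 min. Ncf1 of the same oxidase had 195 ± 8.17 min, close to the median of all genes. In the slope test 20 of 23 members were slower and 1 faster, and without 540 min 19 and 0. Against the pooled rate 17 were slower and 3 faster, and the median without 540 min was 1002 min.

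Nuclear genes of the respiratory chain and ATP synthase had a median of 687 min over all 78 genes of the list (replicate medians 630, 704 and 633 min). Of these, 75 lay in the longest 25% and 75 were called slower with 0 faster (69 and 1 against the pooled rate). Without 540 min the median was 1736 min. They had a median 3′UTR length of 148 bases and a median level of 220 CPM. Atp5o and Atp5e had 4161 and 3157 min, with SDs of 4167 and 4762 min, so they were long-lived but not placed. Sdhd and Ndufs3 were the shortest at 219 ± 48.1 and 196 ± 50.6 min.

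Cytosolic ribosomal protein genes were the longest-lived list. Of 81 with an interval, 66 were fitted, all 66 in the longest 25% and all 66 called slower than the typical gene, with a median of 1309 min (replicate medians 1348, 1673 and 1254 min). All 66 were also slower than the pooled rate, and without 540 min the median was 3449 min, far beyond the 180 min then observed. Their shortest-lived members were Rpl23a at 423 ± 248 min and Rpl15 at 570 ± 97.5 min, still longer than 75% of all genes. The list had a median level of 783 CPM, a median 3′UTR length of 89 bases and a median of 46.6% multimapping reads; ribosomal proteins have many processed pseudogenes. With genes under 10% multimapping alone the median was 1314 min, and with genes of at least 50 T in the interval 1125 min. Rplp1, a protein of the ribosomal stalk, had rates of 1.39%, 1.29% and 1.39% at 0 min, 1.39%, 1.33% and 1.39% at 60 min, 1.31%, 1.51% and 1.43% at 180 min and 1.43%, 1.40% and 1.26% at 540 min. The 4 groups overlapped, and no fall of the rate was detectable over 9 h at 2883 to 4794 conversions per library. The interval of Rplp1 held only 14 T in 41 bases, so its rate rests on few positions.

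The 12 longest-lived transcripts that passed the rule were Rplp1, Rpl26, Rpl14, Trf, Uqcr11, Prdx5, Rps21, Gapdh, Gchfr, Rps4x, Cfp and S100a4, all but S100a4 at the bound. Their order means nothing, because over 9 h a fit cannot tell such values apart. Several carried doubtful reads or little label: 91.9% of the reads of Gapdh and 61.5% of those of Rps4x were multimapping, and the rates of Gapdh at 0 min were 0.519%, 0.466% and 0.309%. Rpl14 had higher rates late than early, 2.64%, 2.12% and 2.41% at 0 min against 3.20%, 3.02% and 2.76% at 540 min, on 823 to 1802 conversions per library. Actb, the usual reference gene, was long-lived but clearly measured: 1.35%, 1.42% and 1.36% at 0 min, 1.31%, 1.37% and 1.35% at 60 min, 1.29%, 1.32% and 1.22% at 180 min and 0.621%, 0.637% and 0.637% at 540 min, with a half-life of 585 ± 25.3 min.

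Half-life increased with abundance. From the least to the most abundant of 5 equal classes of genes the median half-life was 140, 168, 197, 233 and 291 min, with SDs of the 3 replicate medians of 4.80 to 13.9 min, so that each step exceeded that spread. The median levels of these classes were 13.5, 31.0, 54.0, 96.8 and 252 CPM; as the libraries count 1 read per 3′ end, CPM is comparable between genes without a correction for length. Across the 7756 genes Spearman's coefficient was 0.41 and Pearson's on log values 0.42, with 0.40 in each replicate. Genes are not independent replicates, so no p-value is given. The most abundant class kept 94.2% of the 0 min rate at 60 min, and the least abundant 79.6%. In the most abundant class 24.7% of tested genes had lower reads at 540 min against 2.39% in the least abundant, and the part of this in the relation was not tested beyond leaving such genes out, which gave 0.40. With a line fitted to log rates and its intercept left free, so that a slow first hour weighs less, the coefficient was 0.15.

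Half-life decreased with 3′UTR length. From the shortest to the longest of 5 equal classes, with median lengths of 197.5, 565, 1093, 1873 and 3525 bases, the median half-life was 283, 226, 194, 180 and 155 min, with SDs of replicate medians of 4.90 to 15.4 min. The step from 194 to 180 min was within 2 such SDs. Spearman's coefficient was -0.34 and lay between -0.33 and -0.32 in single replicates. Abundance and length were themselves nearly unrelated, with a coefficient of -0.06, and each relation was present within classes of the other. Within abundance classes the coefficient with length went from -0.18 in the least to -0.52 in the most abundant, and within length classes that with abundance ranged from 0.31 to 0.53. The extremes of the grid were genes of low abundance with long 3′UTRs at a median of 125 min (294 genes) and abundant genes with short 3′UTRs at 468 min (423 genes). The latter group held 44 of the 66 ribosomal protein genes and 43 of the 78 respiratory chain genes. Short intervals also contain few T, and with at least 50 T in the interval the coefficient with length was -0.27.

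**Figure D4:**
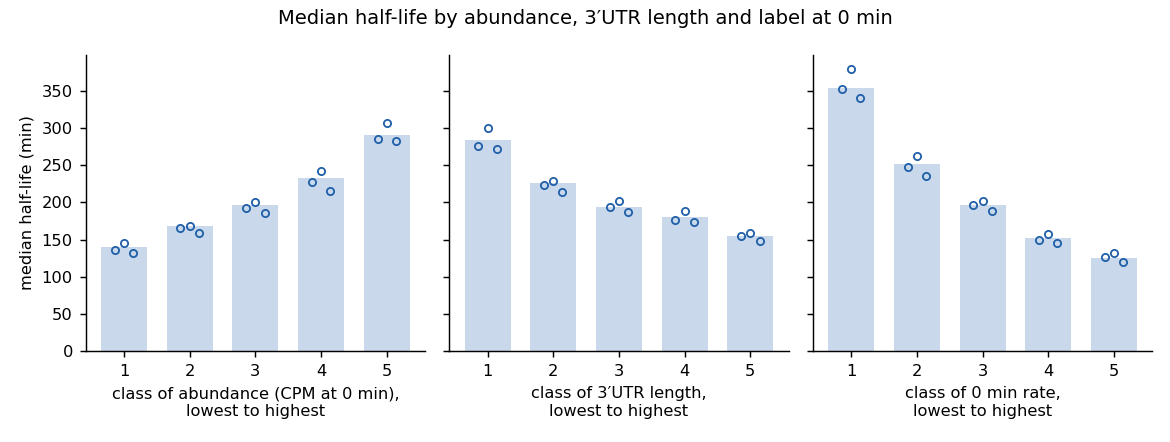
Median half-life in minutes (bars) in 5 equal classes of genes by abundance, by 3′UTR length and by conversion rate at 0 min, with circles for the 3 replicate medians. Medians go up from 140 to 291 min with abundance, down from 283 to 155 min with length, and down from 354 to 126 min with the 0 min rate.

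The conversion rate at 0 min, reached after 12 h of label, was lower in long-lived transcripts. Genes in the lowest of 5 classes of 0 min rate (median 1.34%) had a median half-life of 354 min and those in the highest (median 2.34%) of 126 min, with a Spearman coefficient of -0.62 (-0.33 by the log-linear fit). That rate is also the denominator of the fit. With the 0 min rate of replicate 3 alone against the half-lives of replicates 1 and 2, the coefficient was -0.55. Those half-lives were still divided by the mean 0 min rate of all 3 replicates, so this does not remove the shared denominator.

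Sequence elements were looked for in the 3′UTR interval with the most reads of each gene. The sequence was taken from GENCODE transcripts of the same gene whose 3′UTR, or its first part, had the same length and number of T as the deposited interval, which gave a sequence of at least 50 bases for 6532 of the 7756 genes (84.2%). The 3 elements were searched on the sense strand, with overlapping copies counted, and were the pentamer ATTTA at the core of AU-rich elements, the nonamer TTATTTATT, which contains it, and the Pumilio element TGTANATA. They are shown here as DNA. The sites below were chosen because they come from short-lived named genes, with the nonamer in capitals for the first 5 and the first pentamer in capitals for Ier3 and Myc. The intervals on mm10 are chr1:132332382-132333488 on the plus strand for Nuak2, chr9:22247430-22249220 on the minus strand for Zfp599, chr6:113629570-113631633 plus for Vhl, chr10:117688875-117690209 minus for Mdm2, chr6:82725025-82727309 minus for Hk2, chr17:35822311-35822911 plus for Ier3 and chr15:61989909-61990361 plus for Myc.
Nuak2: atgtgctgacTTATTTATTtttttgtgatt
Zfp599: gctctgctttTTATTTATTtatttaatttg
Vhl: gtataattttTTATTTATTtttaatcccct
Mdm2: ggcattgatgTTATTTATTtgcaaataaat
Hk2: tttatacgagTTATTTATTccagactgttt
Ier3: tgtctaattaatATTTAtgtatttatgtat
Myc: taacagatttgtATTTAattgtttttttaa

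All 3 elements were more frequent in short-lived transcripts. The nonamer was present in 11.8% of the shortest-lived class and 2.22% of the longest-lived, beside 6.43% of all 6532 sequences. The pentamer was present in 82.2% and 45.3%, beside 67.3%, and the Pumilio element in 38.7% and 10.9%, beside 25.4%. Short-lived transcripts also had longer intervals, with a median of 1421 bases in the shortest- and 451 in the longest-lived class, so copies were counted per kilobase too: 0.0873 and 0.0426 for the nonamer, 2.05 and 1.57 for the pentamer and 0.320 and 0.162 for the Pumilio element. Genes with a nonamer had a median half-life of 148 min (420 genes) against 211 min without (6112 genes), and those with a Pumilio element 163 min (1656 genes) against 225 min (4876 genes). With 0, 1, 2, 3 to 4, 5 to 9 and 10 to 37 copies of the pentamer, the medians were 258, 211, 191, 180, 162 and 151 min. With 1, 2 and 3 to 4 copies they were 149, 142 and 156 min for the nonamer (343, 50 and 25 genes), with no steady fall, and 169, 152 and 145 min for the Pumilio element.

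Within each of 5 equal classes of interval length the median was lower with each of the 3 elements than without. In the class of longest intervals it was 138 min with and 163 min without the nonamer, 145 and 174 min for the Pumilio element, and 159 and 192 min for the pentamer, where 42 genes lacked it. The differences exceeded the spread of the replicate medians in that class for the nonamer (135 to 138 min with, 158 to 165 min without) and for the Pumilio element (141 to 146 min with, 172 to 177 min without). In class 4 of the 5, ordered by length, the replicate medians overlapped for the pentamer (173 to 192 min with, 181 to 229 min without). In the class of shortest intervals the nonamer was present in 15 genes only. Genes with an element were also less abundant. Over all lengths the median was 41.2 CPM with and 54.8 without the nonamer, 50.95 and 55.06 for the Pumilio element, and 51.4 and 58.8 for the pentamer. Abundance was not held equal, and the elements were not compared by the log-linear fit. The share of A and T moved with the elements, from a median of 57.1% in the shortest to 54.1% in the longest class of half-life, and its own coefficient with half-life was -0.11. Single genes did not follow the elements closely: Ogdh holds a nonamer with a half-life of 217 ± 35.2 min, and Socs1, Armc5 and Ddit4 hold none of the 3 in the interval searched.

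**Figure D5:**
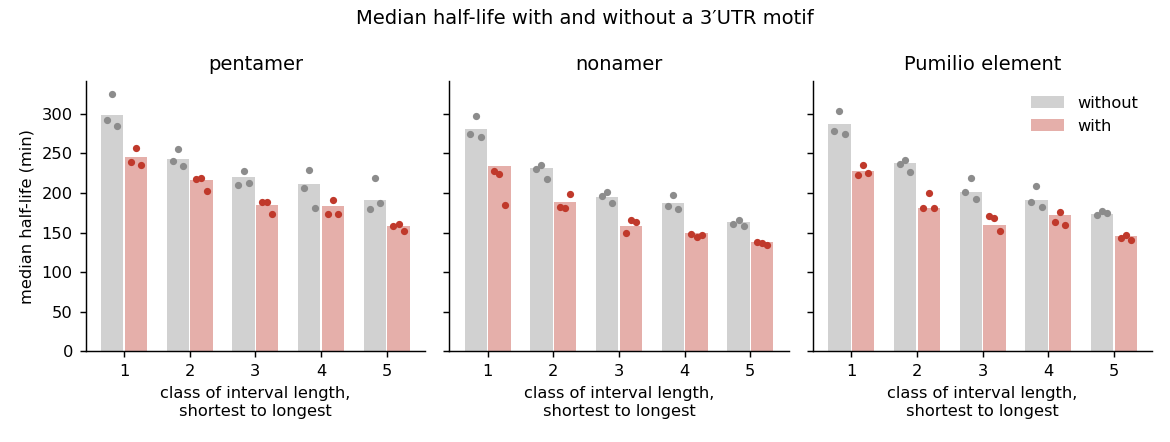
Median half-life in minutes (bars) of genes with and without each element in 5 classes of interval length; dots are the 3 replicate medians. In all 15 pairs the bar of genes with the element is the lower one.

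Ribosomal protein genes had the pentamer in 27.8% and the nonamer in 0 of 36 sequences, with a median interval of 253.5 bases among those with a sequence, and the respiratory chain genes had the pentamer in 35.6% of 59. Feedback inhibitors had it in 13 of 15 and immediate early genes in 7 of 8. As in the groups above, length differed with the elements between these lists.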

How the data were processed

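SLAM-seq, RNA sequencing in which alkylated 4-thiouridine is read as C, was performed on 12 control and 12 Tut4/7 knockout libraries, of which the control libraries were used. Libraries of 3′ ends were made by the authors with QuantSeq FWD. They sequenced single reads of 85 bases and ran SlamDunk 0.4.3 against 3′UTR intervals of mm10. Per the file headers the deposited tables hold, for each interval, whole-number counts of reads, T positions covered and T-to-C conversions. Settings of alignment, filtering and variant masking are not given in the sources used here. The deposited interval length and T content entered as a length and a base count. The authors' rates and CPM were recomputed from the counts, and their CPM and fractions were not used.

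Each table had 39419 lines, of which 39091 (99.17%) were given a symbol by transcript accession from RefSeq (GRCm38.p6). Among overlapping intervals of a gene the longest was kept (29022 intervals), and counts were summed over the 20868 genes. CPM was scaled to the reads in 3′UTRs. Half-lives were bounded to 1 to 10000 min, and replicate half-lives from the 4 libraries of one replicate number gave each SD. Their rates were divided by the mean rate of all replicates at the start of the chase, so the replicate half-lives are not independent. Each SD leaves out error in that shared mean. Slopes (at least 50 conversions) and read counts (TMM, filterByExpr) were tested with edgeR 4.0.16 in R 4.3.3 with Benjamini-Hochberg adjustment over all genes tested. Each procedure was tested on simulated data. Python 3.11.15, numpy 2.4.6 and pandas 2.3.3 were used for the rest. Libraries carry no molecular identifiers, so PCR copies could not be told apart from separate molecules. 3′UTR sequences came from GENCODE M39 transcripts (GRCm39), matched by gene, length and T count and not by coordinates.

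Deviations of single genes, taken after each library's median deviation was removed, did not pair same-numbered libraries. They correlated between -0.022 and 0.032, and those of other pairs between -0.032 and 0.024. A shift shared by all genes of a library cannot be seen in this measure. Replicate 2 had the highest library-wide rate at every time, with 1.67%, 1.52%, 1.12% and 0.330% at 0, 60, 180 and 540 min. Genes named were the 12 shortest and 12 longest among genes with 1000 covered T in each library that lay in the extreme 10% in all 3 replicates (at the bound, ordered by coverage), up to 3 shortest and 3 longest of each of 26 lists, and 15 genes fixed by name. Some genes that this rule names are not reported here. The genes, lists and tests were chosen with earlier results of these data known. Alternatives were other fits, filters, references, DESeq2 1.42.0, left-out times and left-out replicates. The restrictions to genes with 50 T, with under 10% multimapping reads and without a change in read level were added after seeing the data.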

Additional observations from a re-analysis of the deposited data

How the results depend on the processing

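Direction was kept by all 4 summaries of the half-lives in each of the 16 alternatives to each. The median half-life of 204 min moved to 189 min with the residual rate subtracted, 186 min with 0.1% subtracted, 146 min with the log-linear fit, 236 min without 540 min, 190.4 min without 60 min and 195 min with at least 50 T, and was 201 to 205 min with a replicate left out. The coefficient with abundance was 0.41 with the residual rate, with 0.1% subtracted, at 1000 covered T and without 540 min, 0.42 for genes with 1 interval, 0.15 with the log-linear fit, 0.34 without the limit on the SD, 0.39 with at least 50 T, 0.40 under 10% multimapping, 0.40 without genes of changed level and 0.37 to 0.39 with a replicate left out. With length it was -0.27 with the log-linear fit, -0.31 without the limit, -0.38 at 1000 covered T, -0.32 without 540 min, -0.27 with at least 50 T, -0.33 under 10% multimapping and -0.33 with any replicate left out. With the 0 min rate it was -0.603 with the residual rate, -0.600 with 0.1% subtracted, with at least 50 T and under 10% multimapping, -0.33 with the log-linear fit, -0.59 without the limit and without 60 min, and -0.64 at 1000 covered T and without 540 min, and -0.62 to -0.61 with a replicate left out.

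Slope calls of 1786 faster and 2417 slower became 5260 and 971 with the pooled rate as reference, and 1260 to 1311 and 2052 to 2116 with a replicate left out. Calls in read level, 836 lower and 824 higher, were 274 to 603 and 306 to 595. With each replicate divided by its own 0 min rate (replicate block) the median was 208 min and the coefficients 0.40, -0.35 and -0.62; with the replicate number as a block 1658 genes were faster and 2308 slower, and 791 were lower and 791 higher in level. The block moved no count by over 1.5 times. Of values for single lists and genes, 2518 moved by less than 1 SD between replicates and 554 by more, most often with the log-linear fit, under which feedback inhibitors had a median of 148 min, above the 146 min of all genes. The cause was not tested. Depth limits genes of low level, and the chase of 540 min limits half-lives beyond it.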

Other observations

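Among the 6864 genes with 1000 covered T in each library, 16 kept at least 90% of the 0 min rate at 540 min. These were Gapdh, Rpl14, 2900060B14Rik, Trf, Gstm5, Rplp1, Rps4x, Prdx5, Rpl26, Uqcr11, Rps21, Gchfr, Rps27rt, Bsg, Acta2 and S100a11, and they were named after their values were seen. Their intervals had few T, with a median of 35.5 against 323 in all, and their 0 min rates had a median of 0.898% against 1.82%. The rates of 4 of them lay above that median, among them Rps27rt at 3.09% and Rpl14 at 2.39%.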
